A study of Homo sapiens with 60 samples.

Results

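The direct comparison of arsenic with mercury at 6 h rested on 6 of the 60 libraries of the series, 3 from cells treated with sodium metaarsenite and 3 from cells treated with mercury chloride, and was chosen by treatment and time alone. All libraries came from 1321N1, an astrocyte-derived human tumor cell line. Cells were exposed for 6 h to sodium metaarsenite at 2.55 µM or to mercury chloride at 20 µM. The study had chosen these concentrations for a like toxicity in a treatment much longer than 6 h. Whether they were equally toxic at 6 h is not given. The 3 non-treated (nt) libraries of 6 h served to show which metal had moved from the untreated level, and the same pair of metals at 3 and 12 h (6 libraries each) gave values from other cells. The labels describe the triplicates as technical, so that the p-values measure the spread between these libraries and may not cover that between independent cultures. RNA was sequenced from its 3′ end, in which a transcript yields reads from its end only and counts do not grow with gene length. The comparison asks whether the 2 metals, at these concentrations, can be told apart at 6 h by the genes they engage.

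Trivalent arsenic and mercuric ions both bind thiol groups of proteins and small molecules. Cells answer such damage through several known programs: HSF1 turns on chaperones when proteins misfold, NRF2 turns on genes for glutathione and thioredoxin chemistry and for iron storage, MTF1 turns on metallothioneins when free zinc rises, and kinases of the integrated stress response raise ATF4, which drives amino acid transport and synthesis. Growth factor and stress kinases of the MAPK family switch on immediate-early genes and the phosphatases that in turn restrain these kinases. These programs, among others, served as the gene lists below. The lists and their members were chosen with earlier results of these data known. Counts over the lists are therefore not independent evidence of a direction.

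The libraries held 3301764 to 3660738 counts with arsenic, 3442039 to 4110137 with mercury and 2439814 to 3068794 in nt cells, so that 3 counts, taken as the floor of a single library, equalled 0.73 to 0.909 counts-per-million units (CPM) in the 6 treated libraries. Such floors cover counting error only. Mitochondrial transcripts made up 3.83 to 6.19% of counts with arsenic and 5.77 to 6.28% with mercury. Mercury replicate 3 stood apart from the other mercury libraries, with a chi-square per degree of freedom of 6.08 and 7.89 against them, whereas these 2 gave 3.12 against each other and arsenic pairs gave 3.36 to 5.22. Of the astrocyte markers, GFAP, S100B, SLC1A2, AQP4, ALDH1L1 and FABP7 had 0 counts in the 9 libraries of 6 h, while VIM (3270 to 5370 CPM), CD44, SOX9, GJA1 and, at up to 6.83 CPM, NES were detected. All 4 oligodendrocyte markers were at 0, the microglia and leukocyte markers summed to at most 2.99 CPM and the endothelial ones to at most 0.273 CPM in a library. Among the 5 neuron markers, RBFOX3, SNAP25 and STMN2 were at 0, and their sum, made up by SYT1 and MAP2, was 7.92 to 13.6 CPM with arsenic, 12.7 to 18.7 with mercury and 6.73 to 9.43 in nt cells; the part of this shift in the results was not tested.

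The promoter windows of 7 called genes, chosen as examples of the HSF1, MTF1, NRF2 and ATF4 programs and not by the size of their difference, are printed from 250 bases before to 50 after the RefSeq transcription start (GRCh38.p14), 5′ to 3′ on the strand of the gene. Capitals mark matches, on either strand, to the consensus of the factor named above for that gene. A window was printed only if it held such a match, so that the presence of a match in each was fixed in advance. TXNRD1 had 2 windows, and the first with a match is shown. HSPA6 (chr1:161524290-161524589, plus strand), HSPA1A (chr6:31815293-31815592, plus strand) and ZFAND2A (chr7:1160147-1160446, minus strand) are shown for the heat shock element, searched as GAANNTTC and TTCNNGAA, which may overlap each other. MT2A (chr16:56608334-56608633, plus strand) and MT1X (chr16:56682220-56682519, plus strand) are shown for the metal response element, searched as TGCGCNC and TGCACNC, TXNRD1 (chr12:104215529-104215828, plus strand) for the antioxidant response element TGACNNNGC, and CHAC1 (chr15:40953221-40953520, plus strand) for the C/EBP-ATF element TGATGNAA, to which ATF4 binds.
HSPA6: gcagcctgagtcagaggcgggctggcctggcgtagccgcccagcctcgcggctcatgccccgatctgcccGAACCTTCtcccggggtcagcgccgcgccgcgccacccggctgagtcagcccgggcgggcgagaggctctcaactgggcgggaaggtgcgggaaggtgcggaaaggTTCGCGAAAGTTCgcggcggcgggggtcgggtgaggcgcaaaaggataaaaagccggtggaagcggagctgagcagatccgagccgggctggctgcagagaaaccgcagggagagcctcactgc
HSPA1A: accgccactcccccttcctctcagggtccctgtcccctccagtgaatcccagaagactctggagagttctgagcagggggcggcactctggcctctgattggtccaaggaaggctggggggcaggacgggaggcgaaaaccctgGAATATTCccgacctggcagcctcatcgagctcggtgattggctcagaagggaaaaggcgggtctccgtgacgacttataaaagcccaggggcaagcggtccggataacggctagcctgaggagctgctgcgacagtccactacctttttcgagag
ZFAND2A: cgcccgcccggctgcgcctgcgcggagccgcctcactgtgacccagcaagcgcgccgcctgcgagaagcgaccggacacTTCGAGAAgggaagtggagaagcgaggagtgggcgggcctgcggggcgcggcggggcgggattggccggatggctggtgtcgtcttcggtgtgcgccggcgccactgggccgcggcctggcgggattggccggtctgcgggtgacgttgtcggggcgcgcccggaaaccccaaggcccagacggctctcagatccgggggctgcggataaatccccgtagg
MT2A: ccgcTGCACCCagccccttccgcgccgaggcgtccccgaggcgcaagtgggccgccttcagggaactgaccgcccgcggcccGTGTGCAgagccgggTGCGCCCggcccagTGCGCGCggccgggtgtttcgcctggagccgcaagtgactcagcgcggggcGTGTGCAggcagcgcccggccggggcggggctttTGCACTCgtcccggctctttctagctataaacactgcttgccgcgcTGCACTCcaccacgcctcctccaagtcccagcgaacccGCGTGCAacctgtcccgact
MT1X: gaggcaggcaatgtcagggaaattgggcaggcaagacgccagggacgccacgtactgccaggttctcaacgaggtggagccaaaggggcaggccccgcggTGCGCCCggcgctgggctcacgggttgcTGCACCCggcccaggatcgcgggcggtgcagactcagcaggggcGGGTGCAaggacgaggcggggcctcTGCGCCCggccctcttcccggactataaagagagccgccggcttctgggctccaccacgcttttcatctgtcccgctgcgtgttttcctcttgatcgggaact
TXNRD1: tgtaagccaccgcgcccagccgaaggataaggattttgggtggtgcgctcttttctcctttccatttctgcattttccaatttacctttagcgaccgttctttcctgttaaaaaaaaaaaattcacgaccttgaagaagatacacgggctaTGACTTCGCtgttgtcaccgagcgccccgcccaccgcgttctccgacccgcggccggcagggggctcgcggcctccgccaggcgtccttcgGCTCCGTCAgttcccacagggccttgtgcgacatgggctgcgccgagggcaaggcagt
CHAC1: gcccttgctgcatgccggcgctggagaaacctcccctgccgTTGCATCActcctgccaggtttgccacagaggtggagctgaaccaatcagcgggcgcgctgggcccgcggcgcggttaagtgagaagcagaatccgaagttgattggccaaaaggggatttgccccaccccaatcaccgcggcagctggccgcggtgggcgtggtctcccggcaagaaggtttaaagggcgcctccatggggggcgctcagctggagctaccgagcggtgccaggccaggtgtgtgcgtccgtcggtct

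HSPA6 held 3 heat shock matches between positions -180 and -69 relative to the start, 2 of them overlapping, and HSPA1A and ZFAND2A held 1 each. MT2A held 8 metal response matches and MT1X held 4. Such motifs are short and frequent: the heat shock element was found in 13.5% of all 35116 RefSeq windows, the antioxidant element in 13.3%, the metal response element in 29.6% and the C/EBP-ATF element in 3.62%. A window could be matched for 9446 tested genes, of which 13.8% held a heat shock element, against 20 of the 31 matched members of the heat-shock list and 60 of the 311 matched genes that were lower with arsenic (19.3%), compared with 22 of 142 that were higher (15.5%). The C/EBP-ATF element was present in 2.66% of the matched genes, in 13 of 39 matched ATF4 targets and in 24 of the 311 genes lower with arsenic (7.72%), compared with 5 of 142 that were higher (3.52%). The antioxidant element was present in 19.4% of matched genes and in 9 of 28 NRF2-type targets. Like shares held for 13 of 39 ATF4 targets and 10 of 31 heat-shock genes, and all 3 matched metallothioneins held it. Of the genes lower with arsenic 21.9% held this element, and of those higher 17.6%. For the metal response element the shares were 46.6% of matched genes, all 3 matched metallothioneins, 49.2% of the genes lower with arsenic and 45.8% of those higher. A match describes letters and not a bound site.

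Compared directly, 379 of 12341 tested genes (3.07%) were lower with arsenic than with mercury and 174 (1.41%) were higher (edgeR quasi-likelihood test, Benjamini-Hochberg adjusted p under 0.05). With a log2 difference beyond 1 as well, 48 genes (0.389%) were lower and 31 (0.251%) higher. The log2 difference is given as arsenic minus mercury throughout, and its median over all tested genes was 0.0068. Of the 48 genes that were lower by more than 1, arsenic lay within 0.5 log2 units of nt cells for 30 and mercury for 1, and of the 31 genes that were higher by more than 1, arsenic lay within 0.5 for 23 and mercury for 2. Over all tested genes, the shares within 0.5 were 85.3% with arsenic and 78.7% with mercury, and the genes just described were selected for a difference that both metals could not have within 0.5. In the comparisons with nt cells, which share these libraries, 75 genes (0.608%) rose and 38 (0.308%) fell with arsenic, and 554 (4.49%) rose and 369 (2.99%) fell with mercury. All 3 arsenic libraries lay below all 3 mercury libraries for 10.3% of genes and above them for 9.28%, which is the background for the statements below on overlap between the metals. These shares do not apply to the statements on overlap with nt cells, for which no share over all genes is given. The last gene to pass the threshold had an adjusted p of 0.0499 (TXNDC17, log2 difference -0.37, and NDC80, 0.44), and the first to miss it were SLC11A2 (0.61) and KIAA1217 (-0.89).

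Single libraries moved these numbers. Without mercury replicate 3, 513 genes were lower and 238 higher, and these included 457 of the 553 genes called with all libraries. This library was the lowest of the mercury libraries for 190 of the 379 genes lower with arsenic and the highest for 89 of the 174 that were higher. Leaving out any of the other mercury and arsenic libraries gave 213 to 274 lower and 76 to 124 higher genes, with the fewest without mercury replicate 2.

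**Figure D1:**
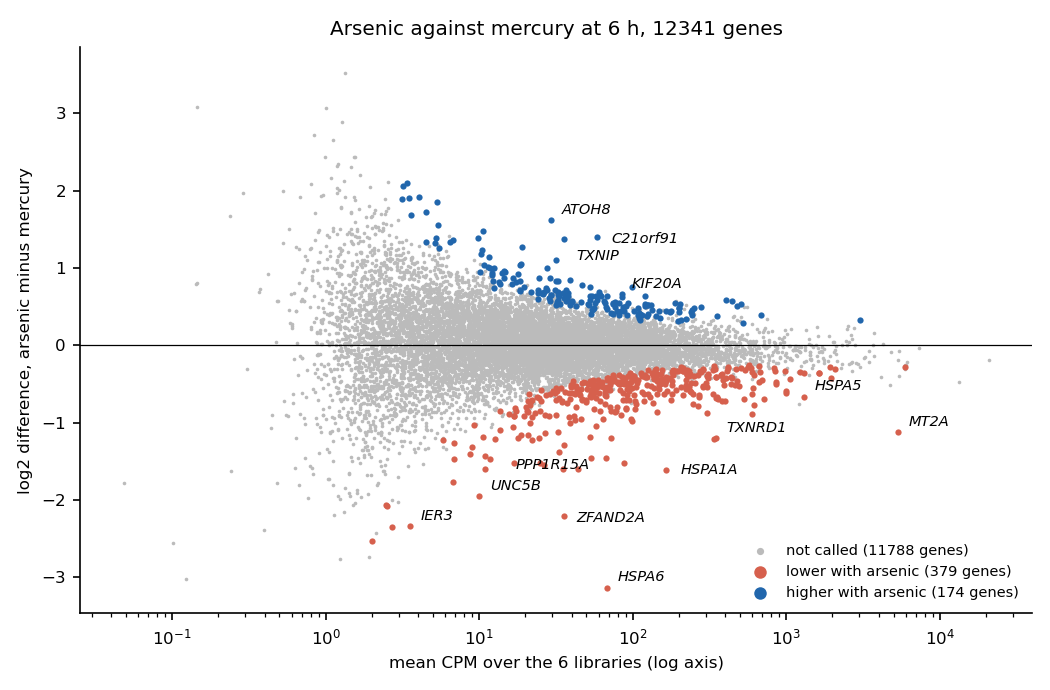
Each point is a gene, placed by its mean CPM over the 6 libraries (log axis) and its log2 difference, arsenic minus mercury, at 6 h. The 379 genes lower with arsenic reach down to -3.14 (HSPA6), and their median level was 92.9 CPM, against 41.5 CPM for the 174 higher genes, which include ATOH8 at 1.61.

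Among called genes, HSPA6 had the largest difference. Of 35 tested members of the heat-shock list, 17 were lower with arsenic and 0 were higher, with a median log2 difference of -0.34, and the 3 arsenic libraries lay below the 3 mercury libraries for 26 of them. HSPA6, a strictly inducible HSP70, stood at 14.7, 14.97 and 12.2 CPM with arsenic, at 103.6, 120.2 and 144.6 CPM with mercury and at 0.816, 0 and 0.321 CPM in nt cells. Both metals thus lay far above nt cells without any overlap, and mercury was 8.79-fold above arsenic (log2 difference -3.14, standard error 0.19, adjusted p = 2.72e-21). Because nt cells held only 3 HSPA6 counts in all, the ratio to nt cells was 38.7 with arsenic (95% counting interval 13.0 to 190) and 344 with mercury (117 to 1670). ZFAND2A, an arsenite-inducible zinc finger protein that binds the proteasome, stood at 12.6, 13.1 and 12.2 CPM with arsenic, at 63.7, 54.0 and 58.0 CPM with mercury and at 13.1, 6.58 and 7.06 CPM in nt cells. Here the arsenic libraries overlapped with nt cells, and the log2 difference between the metals was -2.21 (standard error 0.23, adjusted p = 1.91e-10).

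HSPA1A, a second inducible HSP70, stood at 85.8, 71.4 and 86.2 CPM with arsenic and at 252.9, 265.4 and 223.4 CPM with mercury, compared with 10.6 to 14.3 CPM in nt cells (log2 difference -1.61, standard error 0.15, adjusted p = 2.08e-12). The near-identical HSPA1B gave a log2 difference of -0.89, and as reads may be split or lost between the 2 copies, the separate values are uncertain. The other called members, among them the co-chaperones BAG3, DNAJB4, DNAJB1 and DNAJA1, the HSP110 gene HSPH1 and the mitochondrial pair HSPD1 and HSPE1, differed by -0.33 to -0.74 log2 units. Against nt cells, 17 members of this list rose with arsenic and 27 with mercury. The constitutive HSPA8 did not pass the test between the metals (log2 difference -0.16, adjusted p = 0.442), and of the 8 subunits of the chaperonin TRiC, which folds actin and tubulin, 0 passed, with all 8 values between -0.19 and -0.0052.

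**Figure D2:**
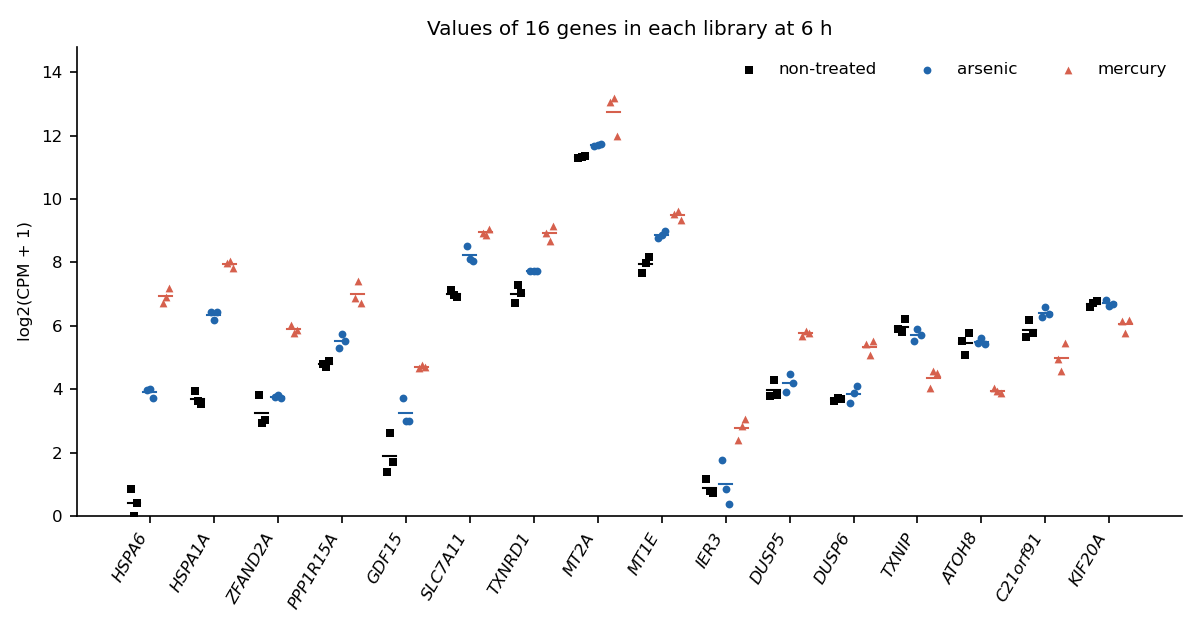
Values of 16 genes as log2(CPM + 1) in each library at 6 h, with squares for nt cells, circles for arsenic, triangles for mercury and short lines for the mean of each group. Arsenic lies between nt cells and mercury for HSPA6 and HSPA1A, near nt cells for ZFAND2A, DUSP5 and DUSP6, and TXNIP, ATOH8 and KIF20A are lowest with mercury. The single low mercury point of MT2A is replicate 3.

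The second group was formed by targets of ATF4. Of 49 tested members, 28 were lower with arsenic and 0 higher, with a median log2 difference of -0.49. Against nt cells, 25 members rose with arsenic and 37 with mercury. GDF15, a secreted stress hormone, stood at 12.3, 6.95 and 6.96 CPM with arsenic and at 24.4, 25.9 and 25.1 CPM with mercury, with 1.63 to 5.12 CPM in nt cells (log2 difference -1.53, standard error 0.27, adjusted p = 5.12e-05). PPP1R15A, which brings a phosphatase to eIF2α and thereby ends the block of translation, stood at 38.4, 52.9 and 45.0 CPM with arsenic, at 117.3, 170.8 and 104.6 CPM with mercury and at 25.2 to 28.9 CPM in nt cells. The groups did not overlap, and the log2 difference was -1.52 (standard error 0.15, adjusted p = 1.04e-11). The list also held amino acid carriers. SLC7A11, the cystine importer, stood at 367.2, 273.1 and 261.6 CPM with arsenic and at 490.2, 467.0 and 526.9 CPM with mercury (log2 difference -0.72, adjusted p = 1.09e-06), and its partner chain SLC3A2 differed by -0.64. The large neutral amino acid carrier SLC7A5 (-0.76) and the alanine and serine carrier SLC1A4 (-0.74) were also lower with arsenic, and all 4 carriers rose against nt cells with each metal. The glycine carrier SLC6A9 did not pass (-0.39, 95% interval -0.86 to 0.068).

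Enzymes that load tRNAs followed in part. Of 20 cytosolic tRNA synthetases, 7 were lower with arsenic (CARS1 -0.63, SARS1 -0.54, and GARS1, NARS1, HARS1, YARS1 and TARS1 by -0.41 to -0.51), with a list median of -0.16, and 4 were called without mercury replicate 2. Only CARS1 rose with arsenic against nt cells, whereas 9 members rose and 1 fell with mercury. Of 28 tested ER chaperones and XBP1 targets, 8 were lower with arsenic. HERPUD1, which takes part in the degradation of ER proteins, stood at 48.4 to 54.3 CPM with arsenic, 86.8 to 105.7 CPM with mercury and 28.2 to 29.4 CPM in nt cells (log2 difference -0.85, standard error 0.14, adjusted p = 9.13e-06). XBP1, a transcription factor of the unfolded protein response, differed by -0.72. The number called fell to 4 without arsenic replicate 2 and to 5 without arsenic replicate 1, without mercury replicate 1 or with the 6 libraries alone. The median of this list was -0.13, and 2 of its members rose with arsenic and 9 with mercury against nt cells.

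**Figure D3:**
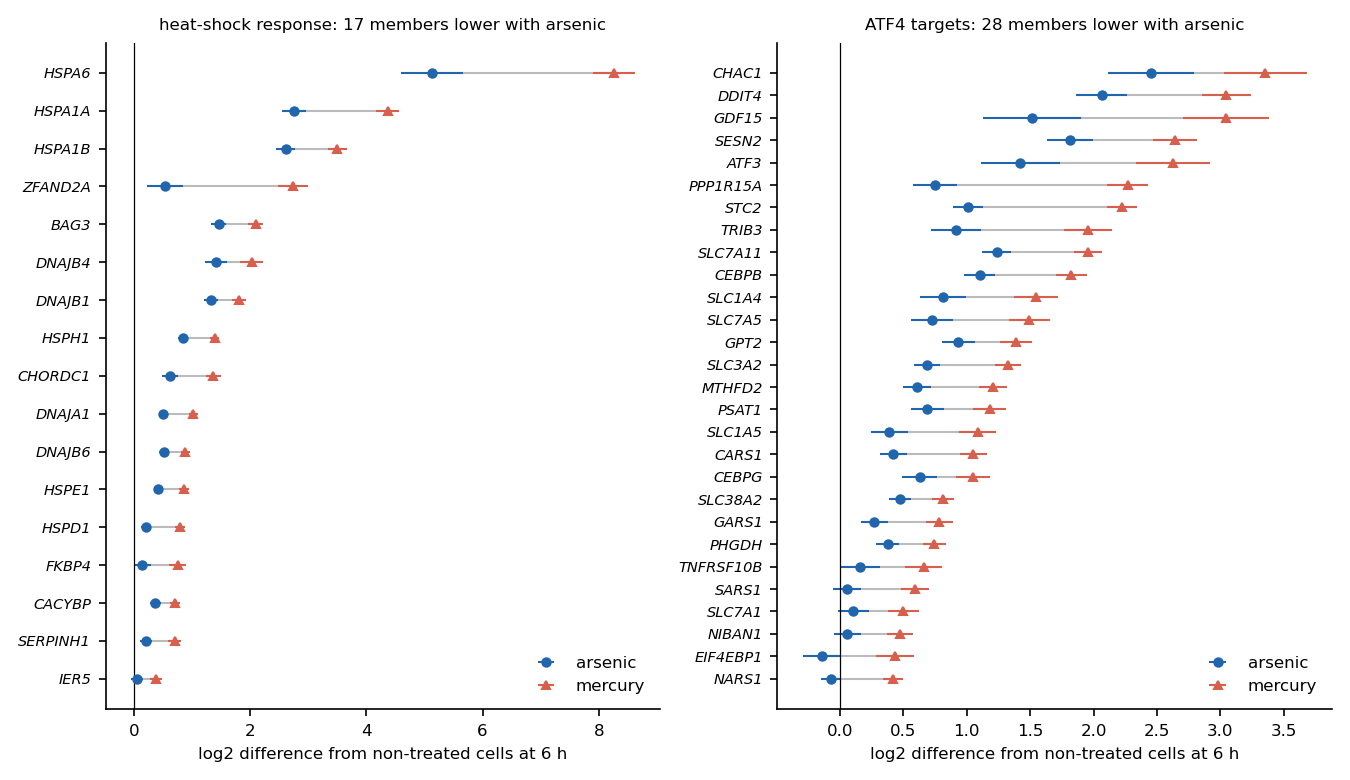
Log2 difference from nt cells at 6 h, with standard errors, for the 17 heat-shock genes and the 28 ATF4 targets that were lower with arsenic, circles for arsenic and triangles for mercury. The genes were chosen by the difference between the metals, so that mercury lies to the right of arsenic for each, and HSPA6 rests on 3 counts in nt cells.

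Of 33 tested immediate-early genes, 18 were lower with arsenic and 0 higher, with a median of -0.51. Against nt cells, the median of the list was 0.063 with arsenic, where 1 member rose and 1 fell, and 0.47 with mercury, where 13 rose. IER3, an early regulator of cell survival, was scarce at 2.4, 0.802 and 0.290 CPM with arsenic and 4.27, 6.10 and 7.37 CPM with mercury, against 0.642 to 1.22 CPM in nt cells (log2 difference -2.34, standard error 0.54, adjusted p = 0.00276). The arsenic values lay near the floor of a library and overlapped with nt cells. NR4A1, an early induced nuclear receptor, stood at 2.90 to 3.30 CPM with arsenic and 8.35 to 12.2 CPM with mercury (log2 difference -1.77, adjusted p = 0.00346). FOS itself, at 0.246 to 1.16 CPM in the treated libraries, was too low to show a difference at this depth (adjusted p = 0.914).

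Among the 14 tested phosphatases and feedback inhibitors of MAP kinases, 4 were lower with arsenic and 10 were not called, of which 6 had values above 0. DUSP5, which acts on ERK in the nucleus, stood at 14.1, 21.1 and 17.1 CPM with arsenic, 49.7, 56.3 and 53.5 CPM with mercury and 12.7 to 18.6 CPM in nt cells (log2 difference -1.60, standard error 0.20, adjusted p = 1.23e-08). DUSP6, its cytoplasmic counterpart, stood at 10.8, 13.6 and 16.2 CPM with arsenic, 41.7, 32.5 and 44.7 CPM with mercury and 11.4 to 12.1 CPM in nt cells (log2 difference -1.55, adjusted p = 1.32e-07). Arsenic and nt libraries overlapped for both, and mercury lay above. The other called members were DUSP1 and the EGF receptor inhibitor ERRFI1. Relative to nt cells, 0 members rose with arsenic and 5 with mercury. Of 17 NF-kB feedback and cytokine genes, only the chemokine gene CXCL8 passed, at 0.580 to 1.336 CPM with arsenic and 2.32 to 7.62 CPM with mercury (log2 difference -2.35, standard error 0.75, adjusted p = 0.0491). This call was lost without mercury replicate 1 (-1.79, adjusted p = 0.303) and without arsenic replicate 1, 2 or 3 (-2.86 to -2.15). In DESeq2 and in the fit of the 6 libraries alone, 0 genes of this list were called lower with arsenic. CXCL8 itself had no adjusted p in either, so that its call was not retested there. The other genes among the 12 largest differences were UNC5B, a netrin receptor (-1.95), ESM1, a secreted proteoglycan (-1.60), KLF5, a Krüppel-like transcription factor (-1.60), and ST3GAL1, a sialyltransferase (-1.52). For each of these, the arsenic libraries overlapped with nt cells and the mercury libraries did not.

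Of 38 tested NRF2-type targets, 12 were lower with arsenic and 0 higher (median -0.38), and 9 rose with arsenic and 18 with mercury against nt cells. TXNRD1, the cytosolic thioredoxin reductase and a selenoprotein, stood at 213.3, 210.6 and 212.3 CPM with arsenic, 488.7, 404.3 and 571.1 CPM with mercury and 103.7 to 156.1 CPM in nt cells (log2 difference -1.20, standard error 0.15, adjusted p = 1.14e-08). AKR1C1, a reductase of carbonyls and steroids, differed by -1.005 (adjusted p = 2.60e-06), and the ferritin light chain FTL by -0.50. HMOX1, which degrades heme, was named here after its values were seen. It stood at 1256, 1241 and 1191 CPM with arsenic, 1398, 1809 and 1588 CPM with mercury and 20.8 to 34.7 CPM in nt cells, and the metals did not pass the test against each other (log2 difference -0.38, 95% interval -0.63 to -0.13, adjusted p = 0.0653). The 2 groups did not overlap.

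Among 35 glutathione and thioredoxin enzymes and regulators, 5 were lower and 1 was higher with arsenic. The latter was TXNIP, an inhibitor of thioredoxin and of glucose uptake, at 45.3, 59.1 and 51.1 CPM with arsenic, 15.2, 22.9 and 21.6 CPM with mercury and 54.5 to 73.2 CPM in nt cells (log2 difference 1.37, standard error 0.17, adjusted p = 1.23e-08). Mercury lay below both other groups, and arsenic overlapped with nt cells. CHAC1, which breaks down glutathione and is itself an ATF4 target, differed by -0.90 (adjusted p = 0.0217) with overlapping groups, as mercury replicate 3 stood at 23.6 CPM and the other mercury libraries at 45.7 and 54.0 CPM. Glutathione reductase GSR gave a log2 difference of 0.0031 with an interval of -0.25 to 0.25. Among 16 selenoproteins, TXNRD1 and SELENOS (-0.40) were lower with arsenic, and among 21 heme and iron genes 4 were lower and NCOA4, the ferritin receptor of autophagy, was higher (0.59, adjusted p = 0.0118, but 0.135 without mercury replicate 2 and 0.0635 without arsenic replicate 1). SQSTM1 (-0.50) and MAP1LC3B (-0.46), which deliver ubiquitinated cargo to autophagosomes, were lower with arsenic along with UBB, 3 of 15 in their list, as was 1 of 32 proteasome subunits (PSMD14, -0.40).

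Of 12 listed metallothionein genes, which encode small proteins that bind zinc and other metals through cysteines, 4 passed the filter on counts, of which MT1B had 0 counts in the 6 libraries, and MT2A, MT1X and MT1E were lower with arsenic. MT2A, on chromosome 16 like the rest of the cluster, stood at 3295, 3362 and 3439 CPM with arsenic, 8613, 9312 and 4086 CPM with mercury and 2540, 2591 and 2646 CPM in nt cells. All groups were apart, but mercury replicate 3 lay closer to the arsenic libraries than to the other mercury libraries. Against nt cells, MT2A passed the test with mercury (1.50, adjusted p = 8.47e-09) and not with arsenic (0.38, adjusted p = 0.518). The log2 difference between the metals was -1.12 (standard error 0.19, adjusted p = 2.09e-05), and it ranged from -1.42 to -0.92 over the alternatives tried. MT1E stood at 435.9, 461.8 and 511.9 CPM with arsenic and 745.2, 779.2 and 653.4 CPM with mercury, against 204.1 to 288.6 CPM in nt cells (log2 difference -0.63, standard error 0.10, adjusted p = 1.35e-05). MT1X, at 12.3 to 20.3 CPM with arsenic and 23.8 to 32.5 CPM with mercury, differed by -0.73 (adjusted p = 0.0137), and it was not called without arsenic replicate 1 (-0.57, adjusted p = 0.141), arsenic replicate 2 or mercury replicate 2. Metallothionein genes are close relatives, and reads shared between them would be lost or split.

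SLC30A1, the zinc exporter of the plasma membrane and another MTF1 target, did not pass the test between the metals at 6 h. It stood at 93.3, 97.6 and 97.8 CPM with arsenic, 103.9, 102.5 and 118.1 CPM with mercury and 36.7 to 48.5 CPM in nt cells, and the 95% interval of the log2 difference ran from -0.42 to 0.076. At 3 h SLC30A1 was lower with arsenic (-0.73, adjusted p = 4.11e-05), and at 12 h its difference was 0.20 (adjusted p = 0.387). Among 16 tested zinc carriers, SLC39A14, which imports zinc, iron and manganese, was the only one called (-0.59, standard error 0.16, adjusted p = 0.0150), and without arsenic replicate 1, arsenic replicate 3 or mercury replicate 1 it was not called (adjusted p up to 0.100). SLC39A10 (-0.18, interval -0.76 to 0.40), MTF1 itself (-0.12, -0.40 to 0.17) and the drug and glutathione conjugate exporter ABCC1 (-0.15, -0.67 to 0.36) did not pass. Of the 14 genes named in the study for its sequencing and screens, 8 were lower with arsenic and 0 higher. The study chose part of that list on these samples, so its count is not independent evidence of a direction. Among 5 tested genes that handle arsenic, the purine nucleoside phosphorylase PNP, which can reduce arsenate, was lower with arsenic (-0.48); the methyltransferase AS3MT and 7 others had too few counts.

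Fewer of the lists held genes that were higher with arsenic. Of 31 genes of G2 and mitosis, 8 were higher and 0 lower (median 0.26), and for 19 the 3 arsenic libraries lay above the 3 mercury libraries. The number called was 4 without arsenic replicate 1 or mercury replicate 2, 5 without arsenic replicate 2 or mercury replicate 1, and 4 with the 6 libraries alone or without a filter. KIF20A, a kinesin of cytokinesis, stood at 112.2, 97.3 and 102.7 CPM with arsenic, 70.7, 53.7 and 72.2 CPM with mercury and 94.7 to 108.5 CPM in nt cells (log2 difference 0.66, standard error 0.12, adjusted p = 0.00013). CDC25C, the phosphatase that starts mitosis, differed by 0.70 (adjusted p = 0.0186), a call that was lost without arsenic replicate 1, arsenic replicate 2, mercury replicate 1 (0.60, adjusted p = 0.134) or mercury replicate 2. Against nt cells, 20 of the 31 fell with mercury and 2 with arsenic. In such bulk libraries, fewer dividing cells and less RNA per dividing cell cannot be told apart. Of 35 DNA replication genes, 3 were lower with arsenic, among them the clamp loader subunit RFC3 (-0.80) and the origin factor CDC45 (-0.72), and 0 were higher. CDC45 was called without mercury replicate 3 and lost its call without any other library (adjusted p up to 0.195), and RFC3 was not called without arsenic replicate 2, mercury replicate 1 (-0.65, adjusted p = 0.118) or mercury replicate 2.

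Of 26 tested p53 targets, 5 were lower with arsenic and 4 higher. Without arsenic replicate 1 these numbers were 3 and 1, and without arsenic replicate 2 they were 4 and 2. The cell cycle inhibitor CDKN1A stood at 33.9, 27.0 and 35.1 CPM with arsenic, 72.5, 89.2 and 57.7 CPM with mercury and 29.6 to 31.1 CPM in nt cells (log2 difference -1.19, standard error 0.16, adjusted p = 2.12e-07). The stress kinase PLK3 (-1.40, but adjusted p = 0.0570 without arsenic replicate 1) and PMAIP1, a BCL2 antagonist (-0.86), were lower too. PMAIP1 was also 1 of the 4 genes lower with arsenic among 19 BCL2 family members and death receptors, beside MCL1, which PMAIP1 binds (-0.63), BCL2L1 and TNFRSF10B. TRIAP1, PHLDA3 and the DNA repair factors XPC and DDB2 were higher with arsenic by 0.55 to 0.64.

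The genes with the largest positive differences were members of few lists. ATOH8, a bHLH transcription factor, stood at 43.2, 47.6 and 42.4 CPM with arsenic, 15.2, 14.5 and 13.8 CPM with mercury and 32.9 to 53.6 CPM in nt cells (log2 difference 1.61, standard error 0.20, adjusted p = 2.96e-08). C21orf91 stood at 75.9, 96.5 and 81.8 CPM with arsenic, 29.9, 22.65 and 42.97 CPM with mercury and 49.0 to 71.3 CPM in nt cells, and arsenic lay above nt cells without passing the test against them (adjusted p = 0.179), while mercury lay below (adjusted p = 0.00171). The log2 difference between the metals was 1.40 (adjusted p = 1.77e-07). TUBD1, delta tubulin (1.48), LFNG, which modifies Notch (1.39), the linker histone H1-5 (1.36), ZNF619 (1.33), MEGF6 (1.28), CCDC71L (1.23), PSKH1 (1.18), ZBTB45 (1.14) and SMAD6, an inhibitor of BMP signals (1.11), followed. Some of these calls hung on single libraries: H1-5 was lost without 4 of the 6 (adjusted p up to 0.257), ZNF619 without 4 (up to 0.174), CCDC71L without 5 (up to 0.189), PSKH1 without 5 (up to 0.201) and ZBTB45 without 2 (up to 0.0869). Of these, LFNG and H1-5 lay below nt cells with either metal. LFNG passed the test against nt cells with mercury (adjusted p = 1.47e-05) and not with arsenic (0.714). H1-5 stood at 17.6 to 22.2 CPM in nt cells, 8.10 to 10.7 with arsenic and 1.74 to 5.16 with mercury, and it passed the test against nt cells with mercury (adjusted p = 7.65e-06) and not with arsenic (0.232). Among 30 genes of cholesterol and fatty acid synthesis, mevalonate kinase MVK (0.84, adjusted p = 0.000936) and HMGCS1 (0.41, lost without 4 of the 6 libraries, adjusted p up to 0.106) were higher and 0 lower.

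The remaining lists gave few calls. Of 76 cytosolic ribosomal proteins, 10 were lower with arsenic, led by RPL41 (-0.62) and RPS27 (-0.47), but this rested on single libraries. Their summed level was 105000 to 113000 CPM with arsenic, 122000 and 126000 CPM in mercury replicates 1 and 2, 107000 CPM in mercury replicate 3 and 108000 to 116000 CPM in nt cells. The number called was 28 without mercury replicate 3 and fell to 0 when another library was left out. Hypoxia and glycolysis genes gave 2 lower of 30 (NDRG1 -1.47, not called without arsenic replicate 1, arsenic replicate 2 or mercury replicate 2, and the glucose carrier SLC2A3 -0.55, not called without any of the libraries but mercury replicate 3, with an adjusted p up to 0.191), extracellular matrix and integrin genes 3 of 25 (ITGB1 -0.45, COL6A3 -0.45 and LAMC1), and YAP and SRF targets 1 of 21 (ACTG1, -0.29, which lost its call without the same libraries, adjusted p up to 0.243). Leaving out 1 library also lowered other short counts, to as few as 1 for ubiquitin and autophagy receptors, 2 each for heme and iron genes and for BCL2 family members, 3 for glutathione and thioredoxin enzymes and 1 for DNA replication. Of 19 SR splicing factors and CLK kinases, 0 passed, with values from -0.48 to 0.52. Of 5 tested astrocyte markers, SOX9 was lower with arsenic.

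The direct differences were then followed in the libraries of 3 and 12 h. At 3 h, 206 genes (1.67%) were lower with arsenic than with mercury and 27 (0.219%) higher, and at 12 h 545 (4.42%) were lower and 299 (2.42%) higher. Of the 379 genes lower at 6 h, 101 were called lower at 3 h and 189 at 12 h, and 1 was called higher at 12 h. Of the 174 genes higher at 6 h, 7 were called higher at 3 h and 35 at 12 h. The difference itself changed between 3 and 6 h for 5 genes (0.0405%) and between 6 and 12 h for 51 (0.413%), by the test of the change. The 5 genes, named after their values were seen, were the ER chaperone genes HSPA5 and SDF2L1 and the hormone gene STC1, with changes of -0.59, -1.10 and -0.76, and MARCKS and the mTORC1 inhibitor DDIT4, with changes of 0.54 and 1.20. HSPA5 did not differ between the metals at 3 h (-0.075, adjusted p = 0.775) and was lower with arsenic at 6 h (-0.67, adjusted p = 1.64e-09), whereas DDIT4 was lower at both times and by less at 6 h (-2.18 and -0.98). Without mercury replicate 3, the 2 numbers were 120 and 319. They were 0 to 5 and 20 to 52 without any other library.

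Among the 35 heat-shock genes, the difference between the metals changed from 6 to 12 h for 8, and it became more negative for each of these. HSPA6 stood at 7.42, 6.56 and 6.00 CPM with arsenic and 26.0, 37.5 and 33.8 CPM with mercury at 3 h. At 12 h it was back to 0.841, 1.44 and 2.10 CPM with arsenic, against 0.309 to 1.31 CPM in nt cells, and had reached 313, 407 and 390 CPM with mercury. These arsenic values lay near the floor of 3 counts, which equalled 0.805 to 0.855 CPM there, so that the size of the difference at 12 h rests on few counts. The log2 difference of HSPA6 thus went from -2.28 through -3.14 to -7.93, and the change from 6 to 12 h was -4.80 (standard error 0.38, adjusted p = 2.47e-15). HSPA1A changed by -2.09 over the same interval (adjusted p = 1.27e-10), with 36.4 to 54.6 CPM with arsenic and 493 to 653 CPM with mercury at 12 h. DNAJB1 and HSPA1B followed, with changes of -1.82 and -1.71, and the other members were BAG3, HSPH1, IER5 and RGS2. At 12 h, 23 of the 35 heat-shock genes were lower with arsenic.

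The metallothioneins turned the other way. MT1E was lower with arsenic at 3 h (-0.73) and 6 h (-0.63) and higher at 12 h (0.50, adjusted p = 0.000492), where it stood at 777, 799 and 766 CPM with arsenic and 533, 576 and 548 CPM with mercury. The change from 6 to 12 h was 1.13 (standard error 0.14, adjusted p = 1.83e-07). MT2A changed by 1.32 and MT1X by 1.16. Neither passed the test between metals at 3 h (-0.41 and -0.28) or at 12 h (0.19 and 0.44). The change of MT2A was not called without mercury replicate 2, and that of MT1X without arsenic replicate 1, arsenic replicate 2 or mercury replicate 2. Many of the genes described above were lower with arsenic at each of the times, among them HSPA6, ESM1, CDKN1A, PMAIP1, MCL1 and XBP1. As further examples, PPP1R15A differed by -1.59, -1.52 and -1.84 at 3, 6 and 12 h, and GDF15 by -2.06, -1.53 and -2.20. DUSP5 differed by -1.37, -1.60 and -1.36, and DUSP6 by -1.46, -1.55 and -1.64. Of the 49 ATF4 targets, 20 were lower with arsenic at 3 h and 19 at 12 h, where 1 was higher. TXNIP was higher with arsenic at 3 h (1.58) and 6 h (1.37), and at 12 h it had come up to 29.5 to 38.1 CPM with mercury, against 36.8 to 43.7 CPM with arsenic. ATOH8 was higher with arsenic at 3 h (1.10), 6 h (1.61) and 12 h (1.48), while TUBD1 passed the test at 6 h and not at 3 h (0.20) or 12 h (-0.45).

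**Figure D4:**
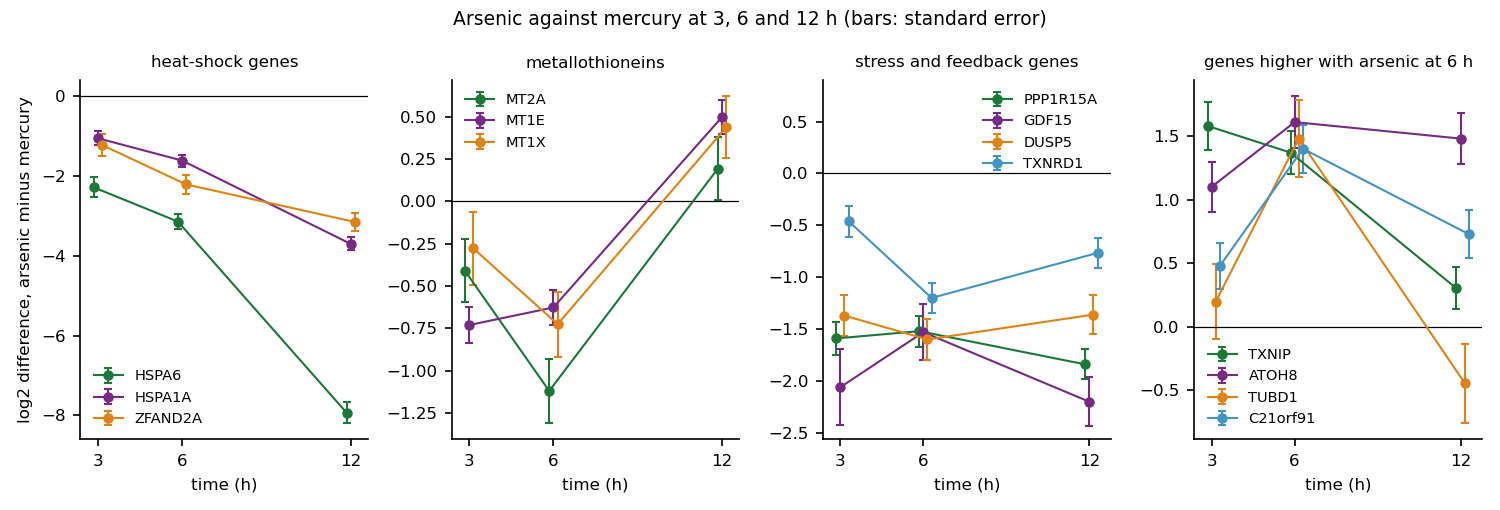
Log2 difference, arsenic minus mercury, at 3, 6 and 12 h with standard errors, for 14 genes in 4 panels with their own vertical scales. HSPA6 falls to -7.93 at 12 h, where its arsenic values lie near the floor of a library. The 3 metallothioneins lie below 0 at 3 and 6 h and above 0 at 12 h. MT2A and MT1X did not pass the test at 3 or 12 h, and TXNIP and TUBD1 did not pass it at 12 h.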

How the data were processed

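RNA of 1321N1 cells was sequenced from the 3′ end in 60 libraries of 20 groups. The authors aligned reads to GRCh38 with STAR 2.7.9a, counted those on exons of the matching strand with GenomicAlignments, which drops reads overlapping several genes, and deposited whole-number counts per gene without normalization. Of 62703 genes, 12341 passed filterByExpr (minimum count 10, minimum total 15); 92 spike-ins had 0 counts.

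All libraries were fitted in edgeR 4.0.16 (R 4.3.3) with TMM factors and 1 coefficient per metal and time point, and contrasts were tested by the quasi-likelihood test with Benjamini-Hochberg adjustment. The study itself tested each metal against nt cells in DESeq2. CPM values use TMM-adjusted library sizes, except those of cell type markers, which use total counts. The common biological coefficient of variation was 0.12. On counts simulated for arsenic against mercury at 6 h (12075 genes), the test recovered 83 of 100 genes changed by 1 log2 unit and 97 of 100 changed by 2, with 7 false calls, and made 1 call in a comparison without change. The changed genes were drawn above a minimum level, so that recovery of lower genes was not measured. The simulated counts held no outlying library such as mercury replicate 3. Replicates were no copies of each other (lowest chi-square per degree of freedom 2.20).

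The genes named are the 12 largest called differences in each direction with a mean of at least 20 counts, up to 2 called members with the largest difference from each list, and the genes the study names; clone-type names would have been left out, and 0 occurred. Genes outside this rule, such as HMOX1, HSPA5 and other list members, were named after their values were seen. The 33 lists and the members were chosen with earlier results of these data known. Promoter windows came from RefSeq (GRCh38.p14); no window was printed for MT1E or SLC7A11. Alternatives were RLE size factors, no filter, a stricter filter (minimum count 30), DESeq2 1.42.0, the 6 libraries alone, a replicate block, glmTreat beyond a log2 difference of 1 and leaving out each library. Reads were not realigned, and no set test was run.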

Additional observations from a re-analysis of the deposited data

Results flagged for a closer look

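For 7 of the named genes, the difference between arsenic and mercury at 12 h was not the one at 6 h, by the test of the change itself over separate libraries (edgeR quasi-likelihood test). The log2 difference, arsenic minus mercury, fell by 12 h for HSPA6 (change -4.80, adjusted p = 2.47e-15), HSPA1A (-2.09, adjusted p = 1.27e-10), TUBD1 (-1.93, adjusted p = 0.0203) and TXNIP (-1.07, adjusted p = 0.0145). For HSPA6 and HSPA1A a negative difference grew. For TUBD1 and TXNIP a positive difference at 6 h (1.48 and 1.37) went to one not called at 12 h (-0.45 and 0.30). The difference rose for MT2A (1.32, adjusted p = 0.00388), MT1X (1.16, adjusted p = 0.0206) and MT1E (1.13, adjusted p = 1.83e-07). All 3 were negative at 6 h, and at 12 h MT1E was called higher with arsenic (0.50), while MT2A (0.19) and MT1X (0.44) were not called. HSPA6, HSPA1A and MT1E were called in each of 9 alternatives, with changes of -4.93 to -4.69, -2.18 to -2.02 and 1.07 to 1.20. The size of the HSPA6 change rests on arsenic values near the floor of a library at 12 h. The change of TXNIP was not called without arsenic replicate 2 or mercury replicate 1, and that of TUBD1 without arsenic replicate 1 or mercury replicate 2.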

How the results depend on the processing

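No called difference of the 70 named genes changed sign under any alternative tried. Values near 0 that were not called did change sign, among them ABCC1 (-0.39 to 0.13) and GSR (-0.089 to 0.13). The signs of the other called genes were not compared. The count of genes higher with arsenic, 174, was 104 when only the 6 libraries were fitted, and the 31 beyond a log2 difference of 1 became 18 in that fit and 19 in DESeq2. DESeq2 found 63 genes whose difference changed between 3 and 6 h and 139 between 6 and 12 h, against 5 and 51. A test against a log2 difference of 1 itself (glmTreat) left 0 higher and 3 lower genes (HSPA6, ZFAND2A and HSPA1A). Leaving out 1 library at a time gave 76 to 238 higher and 213 to 513 lower genes, 17 to 48 and 39 to 60 beyond 1, and 0 to 120 and 20 to 319 genes changed between 3 and 6 h and between 6 and 12 h; the highest values came without mercury replicate 3, and the cause was not tested. Of 70 named genes, 6 to 17 lost their call in these fits, 9 with 6 libraries alone (69 genes with an adjusted p) and 4 without a filter. With RLE size factors, the stricter filter (68 genes with an adjusted p) or DESeq2 (66 genes) 0 lost it. The 70 include SLC6A9, SLC39A10, SLC30A1, ABCC1, MTF1 and GSR, which were not called and had no call to lose.

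Replicate numbers did not pair the libraries (correlations of deviations 0.0238, -0.00843 and 0.0277), and with a replicate block 186 genes were higher and 381 lower, 34 and 48 of them beyond 1, with 5 and 45 changed over time. At 3301764 to 4110137 counts in the 6 libraries, low genes such as FOS could not be compared.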
